A study of Mus musculus with 721 samples.

Results

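Pdgfa, a ligand of the platelet-derived growth factor (PDGF) family, and Pdgfra, its receptor, were followed through mouse development from the blastocyst to gastrulation. They are 2 of the 24483 genes analysed and were found by their symbols. Single-cell RNA-seq had been collected from wild type C57Bl/6Babr embryos of 4 stages, named by the embryonic day (E) and running from E3.5 to E6.5. The inner cells of E3.5 and E4.5 embryos had been isolated after the outer trophectoderm was lysed with antiserum and removed. No embryo carried a transgene or received a treatment.

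The data hold 721 cells from 37 embryos, as told apart by the stage, plate and number in their titles. The study reports fewer embryos. Of these, 99 cells came from 10 embryos at E3.5 and 105 cells from 5 embryos at E4.5. The 9 embryos of stage E5.5 gave 267 cells, and the 13 embryos of stage E6.5 gave 250. At E3.5, 9 cells had no embryo number and were counted as 1 embryo. At E6.5, 82 of the 250 cells, from 2 embryos, are titled E6.75 and were kept with E6.5 by their stage label. Embryo numbers 1 and 2 occur both in titles of E6.5 without a plate name and in titles of E6.75, and were counted apart. Cells held 66896 to 3792936 counts, with a median of 692863. Apart from 5 cells of E5.5 titled VE (visceral endoderm), the cells had no deposited lineage names. They were clustered without Pdgfa, Pdgfra or any gene of the PDGF and lineage lists, and clusters were named from marker genes. This gave 77 PrE-like cells (PrE, primitive endoderm) and 23 epiblast-like cells at E4.5, with 5 cells left unnamed. Those 5 had clustered with the PrE-like cells, 82 in all, and were taken out by their own marker levels, a check added after the data were seen. At E5.5 there were 259 epiblast-like and 8 endoderm-like cells, and all 5 cells titled VE were among the 8. At E6.5 there were 166 epiblast-like, 41 endoderm-like and 25 streak-like cells (primitive streak), with 18 unnamed. The 99 E3.5 cells were kept as 1 class.

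The marker lists that named the classes give their summed levels, as a description and no independent check. The summed level of 24 endoderm markers was 17161 to 26582 CPM, a count scaled to the total of its library, in PrE-like cells and 2077 to 3866 CPM in epiblast-like cells of the 5 E4.5 embryos. The summed level of 17 epiblast markers was 1326 to 2437 CPM in PrE-like cells and 5570 to 6802 CPM in epiblast-like cells. Of 10 trophoblast markers, Cdx2, Krt7, Hand1, Prl3d1 and Tpbpa were at 0 in both E4.5 classes. The other 5 were detected, at a summed 186 to 441 CPM in epiblast-like and 58.9 to 135 CPM in PrE-like cells. At E3.5, 7 of the 10 were detected, at a summed 157 to 982 CPM per embryo.

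PDGF ligands are secreted as disulphide-linked dimers, and the A chain signals through PDGFRα, the receptor tyrosine kinase that Pdgfra encodes. Ligand binding pairs the receptors, which phosphorylate each other and recruit adaptors that feed the Ras-MAPK and PI3K pathways. Pdgfra is a long-used marker of the primitive endoderm, the lineage that separates from the epiblast within the inner cell mass and later gives rise to the parietal and visceral endoderm. In gastrulating embryos it is known from mesoderm leaving the primitive streak.

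Both genes lie on chromosome 5 of the GRCm38 build. The GENCODE annotation places Pdgfra (ENSMUSG00000029231) at 75152292 to 75198215 on the plus strand, with 9 transcripts whose joined exons cover 10.02 kb. It places Pdgfa (ENSMUSG00000025856) at 138976014 to 138997370 on the minus strand, with 7 transcripts whose joined exons cover 3.12 kb. The antisense gene 6330403L08Rik overlaps the 5′ end of Pdgfa by 2315 bases. The libraries do not mark strand, so reads in that stretch cannot be told apart. Counts given to 6330403L08Rik itself were low, at most 7.96 CPM in any sum.

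Levels are given as CPM, normalized between libraries, after the counts of at least 3 cells of a class were summed within an embryo. This left 48 sums, and the embryo was the replicate. No test between stages took the plate into account, so plate and stage cannot be told apart in those comparisons. Pdgfra was highest in the PrE-like cells of E4.5. Embryos 1 to 5 had 266, 254, 205, 180 and 194 CPM there, a mean of 220 ± 37.9 CPM (SD, n = 5). No embryo stood apart, although both embryos of plate P1 (254 to 266 CPM) lay above the 3 of plate P2 (180 to 205 CPM). In the 23 epiblast-like cells of the same 5 embryos not a single Pdgfra read was counted. A count of 3 over that class would be 0.193 CPM, so Pdgfra was at least 1037-fold higher in PrE-like cells. Such floors, like the intervals given further on, cover counting error only. The difference passed edgeR's quasi-likelihood test (adjusted p = 1.1e-05). In this comparison 5.56% of the 16928 genes tested were called, which means an adjusted p of at most 0.05 and an absolute log2 difference over 2 (over 1 in the other comparisons).

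At E3.5 the receptor was detected in all 10 embryos, at levels that varied between embryos. The cells without an embryo number had 71.5 CPM. Embryos 1 to 5, on plate P8, had 99.8, 23.3, 0.646, 99.1 and 63.3 CPM. Embryos 6 to 9, on plate P9, had 165, 115, 47.6 and 119 CPM. Over all, the mean was 80.5 ± 49.1 CPM (SD, n = 10). The embryos of plate P8 are represented by 3 or 4 cells each and those of plate P9 by 11 to 28, and the lowest value, 2 counts in embryo 3, came from 3 cells.

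The 10 embryos at E3.5 all lay below the 5 PrE-like sums of E4.5. The fitted log2 difference between them was 1.45 ± 0.86 (SE), with an adjusted p of 0.246 in edgeR, where 18.3% of genes were called. An exact two-sided permutation test over the same embryos, on the log2(CPM + 1) scale, gave a difference of 2.01 and an adjusted p of 0.00466 over 14 such tests. The call therefore depended on the test. Groups without overlap in this comparison were found for 7.37% of all genes. In the other direction, Pdgfra at E3.5 was at least 532-fold higher than in epiblast-like cells of E4.5 (edgeR, adjusted p = 1.0e-05). In that comparison 19.2% of genes were called, and 5.77% had groups that did not overlap, as Pdgfra did.

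After E4.5, Pdgfra stayed near absent from the epiblast. At E5.5 the gene had 1 count in all, in embryo 3 of plates P7.P4.P5, and that read came from a well labelled double. At E6.5 the epiblast-like cells had 0 in 6 of 12 embryos and at most 2.31 CPM (0.582 ± 0.860 CPM, SD, n = 12). The pooled ratio of E6.5 to E5.5 was 129, with an exact counting interval of 22.3 to 5148 because 1 count stands below the line. The difference was called in edgeR (log2 5.16 ± 1.12, SE, adjusted p = 0.00139, with 11.6% of genes called), but the exact permutation test gave an adjusted p of 0.0607. Streak markers moved with it: their sum was 60.5 to 123 CPM per embryo at E5.5 and 169 to 845 CPM at E6.5 in the epiblast-like cells. Endoderm markers summed to 747 to 1094 CPM at E5.5 and 737 to 3954 CPM at E6.5. The part of either in the Pdgfra level was not tested.

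In endoderm-like cells of E6.5, Pdgfra was lower than in the PrE and, relative to its mean, less even between embryos. The PrE-like sums hold 8 to 27 cells each and the endoderm-like sums 3 to 8. The part of cell number in the spread was not tested. The 7 embryos had 36.0, 0, 25.7, 90.4, 7.71, 31.4 and 0 CPM (27.3 ± 31.5 CPM, SD, n = 7), and none reached the lowest PrE-like embryo, a separation found for 6.67% of genes. The log2 difference from PrE-like cells was -3.01 ± 0.98 (SE), with an adjusted p of 0.0353 in edgeR and 11.6% of genes called. This call was lost when embryo 1, 2, 3 or 5 of E4.5 was left out, with adjusted p-values up to 0.0713, and without the cells titled E6.75 (log2 -2.68, edgeR, adjusted p = 0.0679). The exact permutation test gave an adjusted p of 0.00589. Against the E6.5 epiblast-like cells the receptor was higher in endoderm-like cells, by 5.48 ± 0.86 on the log2 scale (SE, edgeR, adjusted p = 1.8e-05, with 15.3% of genes called). On plate P1 the endoderm-like sum had 36.0 CPM and the epiblast-like sums at most 0.6251 CPM. On plate P3 the endoderm-like sums had 7.71 to 90.4 CPM and the epiblast-like sums at most 2.31 CPM. On plate P2 one endoderm-like sum was at 0, so the groups overlapped there. They also overlapped in sums without a plate name, at 0 to 31.4 CPM in endoderm-like and 0 to 1.23 CPM in epiblast-like cells. Pdgfra did not pass the count filter of the fit with the embryo as a block, which gave no value for it.

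The streak-like cells form 1 sum, 24 cells of 1 embryo, with 17.8 CPM of Pdgfra and 306 counts. That value lay above all 12 epiblast-like sums, as was the case on either side for 12.1% of genes. With a single embryo, whose spread was assumed to equal that of the other classes, the difference was not called (log2 4.87 ± 1.19, SE, edgeR, adjusted p = 0.117), and 0.0177% of genes were. All 18 streak markers were detected in it, at a summed 1652 CPM, and of the 10 genes that led its cluster by fold 4 were streak markers (Fgf3, Mesp1, Mesp2 and Dll1) and 0 endoderm markers. Yet the same streak list summed to 582 to 3539 CPM in endoderm-like cells, where 6 of the 18, Mesp1 and Mesp2 among them, were at 0. The endoderm markers summed to 3871 CPM in the streak-like sum, against 14150 to 40029 CPM in endoderm-like and 737 to 3954 CPM in epiblast-like cells. As mean log2 levels over cells, the streak-like cluster had 5.54 for endoderm, 5.15 for streak and 4.59 for epiblast markers. Endoderm markers had 6.03 in the endoderm-like cluster and 3.06 and 3.23 in the epiblast-like clusters. The streak name rested on the difference from the other E6.5 cells. The part of endoderm RNA in the Pdgfra level of the streak-like sum was not tested.

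In order of mean level Pdgfra thus ran from PrE-like cells to E3.5 cells, E6.5 endoderm-like cells, streak-like cells, and then the epiblast of E6.5, E5.5 and E4.5. The E3.5, endoderm-like and streak-like values overlapped. Without embryo 7 of plate P3 the endoderm-like mean was 16.8 CPM, under the streak-like value, so the order of those neighbours turned.

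**Figure D1:**
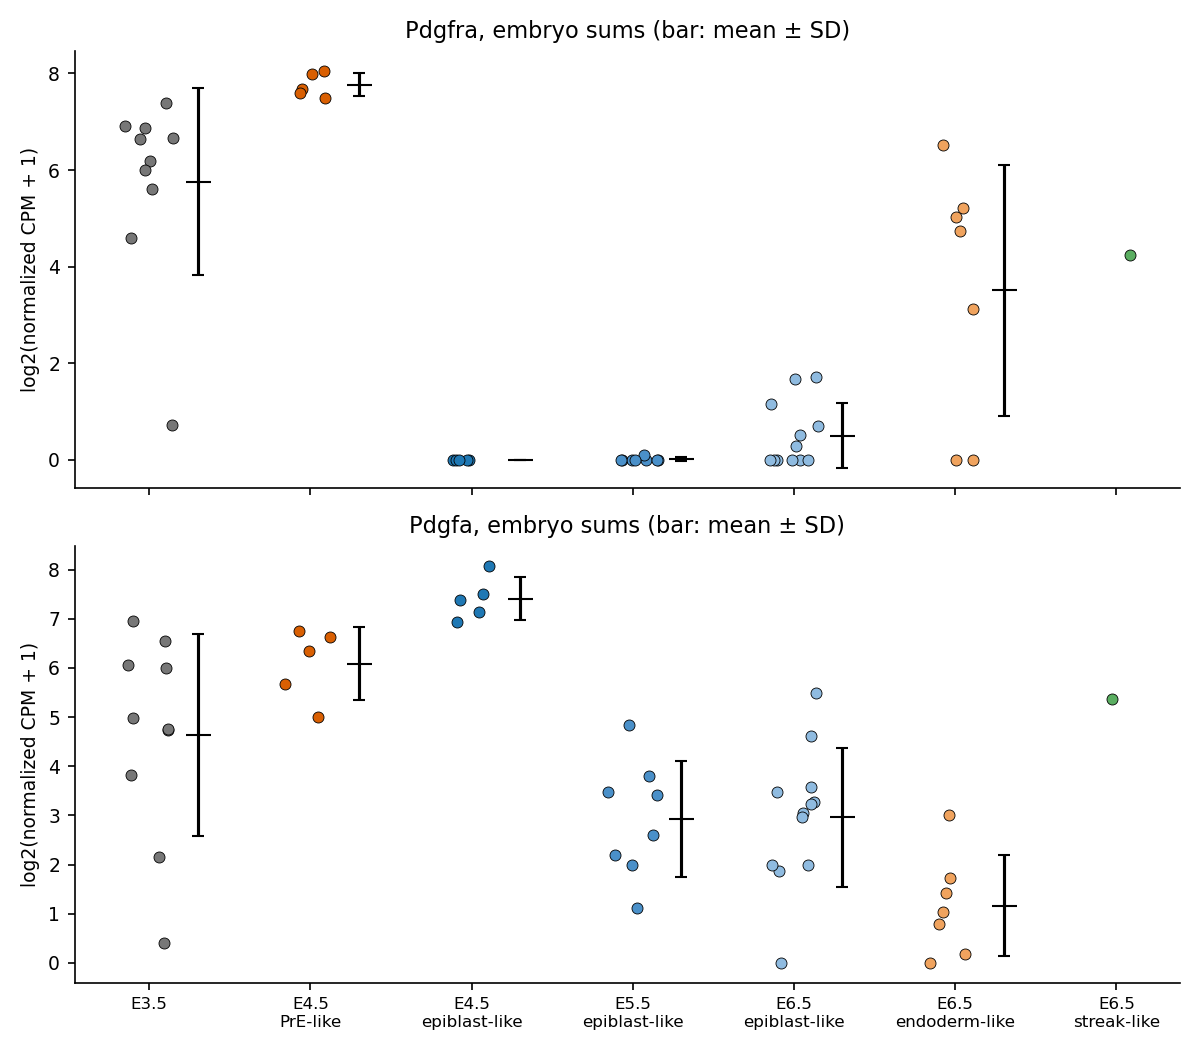
Levels of Pdgfra and Pdgfa by class as log2(normalized CPM + 1), where each point is the sum of at least 3 cells of 1 embryo and bars give the mean ± SD on that scale. For Pdgfra the 5 PrE-like embryos sit at 180 to 266 CPM and the 5 epiblast-like embryos of E4.5 at 0. For Pdgfa the E4.5 epiblast-like embryos have the highest mean and lie at 122 to 269 CPM, and the highest E3.5 embryo just exceeds the lowest of them.

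The ligand had another order. Pdgfa was highest in the epiblast-like cells of E4.5, where embryos 1 to 5 had 181, 269, 165, 122 and 141 CPM (176 ± 57.2 CPM, SD, n = 5). The PrE-like cells of the same embryos had 98.6, 80.3, 107, 50.2 and 30.9 CPM (73.5 ± 32.3 CPM, SD, n = 5). In every embryo the epiblast-like value was the higher of the pair, and the groups did not overlap, which held for 11.2% of all genes. The order also held within plates, at 181 to 269 against 80.3 to 98.6 CPM on plate P1 and 122 to 165 against 30.9 to 107 CPM on plate P2.

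Whether this ligand difference passed a test depended on the test. The log2 difference, PrE-like minus epiblast-like, was -1.26 ± 0.94 (SE), with an adjusted p of 0.464 in the edgeR fit of all classes. With the embryo as a replicate block it was -1.34 ± 0.29 (SE, edgeR, adjusted p = 0.0113). The exact permutation test, at the smallest p that 5 against 5 allows, gave an adjusted p of 0.0123 without using the pairing. The difference was under the log2 limit of 2 in each of these and is not counted as called.

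At E3.5 Pdgfa also varied between embryos. The cells without an embryo number had 13.1 CPM. Embryos 1 to 5 had 62.7, 3.44, 0.323, 122 and 92.2 CPM, and embryos 6 to 9 had 30.5, 66.0, 25.5 and 26.02 CPM (44.2 ± 40.3 CPM over all, SD, n = 10). The highest E3.5 embryo just exceeded the lowest epiblast-like embryo of E4.5. From E3.5 to the E4.5 epiblast the log2 difference was 1.99 ± 0.77 (SE, edgeR, adjusted p = 0.0577). It passed the exact permutation test, at an adjusted p of 0.00544, and DESeq2, at an adjusted p of 0.0470. From E3.5 to the PrE it was 0.73 ± 0.78 (SE, edgeR, adjusted p = 0.591), within the spread between embryos.

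In epiblast-like cells Pdgfa was lower at E5.5 than at E4.5. The 8 embryos at E5.5 had 13.0, 9.65, 3.59, 2.96, 5.07, 27.7, 1.17 and 10.1 CPM (9.15 ± 8.53 CPM, SD, n = 8), all under the lowest E4.5 embryo, as held on either side for 8.94% of genes. The log2 difference was -4.26 ± 0.87 (SE, edgeR, adjusted p = 0.00122), in a comparison where 5.37% of genes were called. At E6.5 the epiblast-like level was 10.7 ± 12.1 CPM (SD, n = 12), from 0 in 1 embryo to 44.1 CPM. The change from E5.5 was 0.24 ± 0.67 on the log2 scale (SE, edgeR, adjusted p = 0.897).

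In the endoderm, Pdgfa fell by 5.38 ± 0.99 on the log2 scale (SE) between PrE-like cells of E4.5 and endoderm-like cells of E6.5 (edgeR, adjusted p = 0.000171). The 7 embryos had 7.02, 1.68, 0.128, 0.726, 2.31, 0 and 1.04 CPM (1.84 ± 2.42 CPM, SD, n = 7), and the groups did not overlap, in the comparison where that held for 6.67% of genes and 11.6% were called. The ligand was lower in these cells than in the E6.5 epiblast, by -2.61 ± 0.82 on the log2 scale (SE, edgeR, adjusted p = 0.0234), although the groups overlapped. Without the cells titled E6.75 the value was -2.18 and the call was lost (edgeR, adjusted p = 0.111). Within plate P2 it had 0.128 to 1.68 CPM in endoderm-like and 6.81 to 23.4 CPM in epiblast-like sums, but on plate P3 the ranges were 0.726 to 2.31 and 0 to 2.98 CPM. With the embryo as a block the value was -2.13 ± 1.60 (SE, edgeR, adjusted p = 0.495). The single streak-like sum had 40.2 CPM, inside the range of the epiblast-like embryos.

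The lineage difference itself was compared between the stages. For Pdgfra, the endoderm minus epiblast difference was smaller at E6.5 than at E4.5 by an interaction of -8.73 ± 2.46 on the log2 scale (SE, edgeR, adjusted p = 0.0339, with 3.66% of genes called). The E4.5 epiblast sums are all at 0, so this size depends on the fit's prior count, and the call was lost when any of the 5 E4.5 embryos was left out. For Pdgfa the interaction was -1.36 ± 1.20 (SE, edgeR, adjusted p = 0.672).

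Per kb of joined exon, ligand and receptor could be set side by side. In PrE-like cells the level was 21.9 ± 3.78 CPM per kb for Pdgfra and 23.6 ± 10.4 CPM per kb for Pdgfa (SD, n = 5). At E3.5 it was 8.03 ± 4.90 CPM per kb for the receptor and 14.2 ± 12.9 CPM per kb for the ligand (SD, n = 10). In PrE-like cells each mean lay within an SD of the other, and at E3.5 the ranges of mean ± SD overlapped. In the E4.5 epiblast the ligand had 56.3 ± 18.3 CPM per kb (SD, n = 5) and the receptor 0. In the streak-like sum the ligand had 12.9 and the receptor 1.78 CPM per kb, and in E6.5 endoderm-like cells the order was the opposite, at 0.591 ± 0.777 for the ligand and 2.72 ± 3.14 for the receptor (SD, n = 7). Transcripts with short exon sets would change these lengths.

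The single cells of each class gave a finer view. All 77 PrE-like cells had Pdgfra reads, from 7.54 to 773 CPM with a median of 196 CPM. All 23 epiblast-like cells of E4.5 had Pdgfa reads, from 56.0 to 484 CPM with a median of 129 CPM. None of the 23 had a Pdgfra read, which by the floor of 3 counts allows a share of cells with a read of up to 13.0% (exact 95% limit 14.8%). Of the PrE-like cells, 65 had Pdgfa, with a median over all 77 of 45.9 CPM and a maximum of 381 CPM. Cells of E3.5 ran from 0 to 1050 CPM of Pdgfra (median 48.0) and from 0 to 312 CPM of Pdgfa (median 11.4).

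The PrE-like cells carried the receptor more evenly than the E3.5 cells. At E3.5 the highest 10 of 99 cells held 47.5% of the summed single-cell CPM of Pdgfra and 50.0% of that of Pdgfa. In PrE-like cells the highest 8 of 77 held 25.7% and 39.6%. The coefficient of variation over cells was 1.57 for Pdgfra at E3.5 and 0.731 in PrE-like cells. Of the wells, 9 of 99 at E3.5 and 30 of 77 in the PrE-like class are labelled double, and the E3.5 cells were not divided by markers. The part of either in these spreads was not tested. The 5 unnamed E4.5 cells, 1 from each embryo, all had Pdgfa (64.4 to 351 CPM), and Pdgfra was at 0 in 3 of them and at 2.09 and 3.45 CPM in the others, below every PrE-like cell. Had they stayed with the PrE-like clusters, 79 of 82 cells would have had a Pdgfra read. Ward clustering, an alternative, took 27 cells of E4.5 as epiblast-like, and 101 of 105 cells had the same class under both. The absence of Pdgfra from the E4.5 epiblast thus holds for the 23 cells named here.

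**Figure D2:**
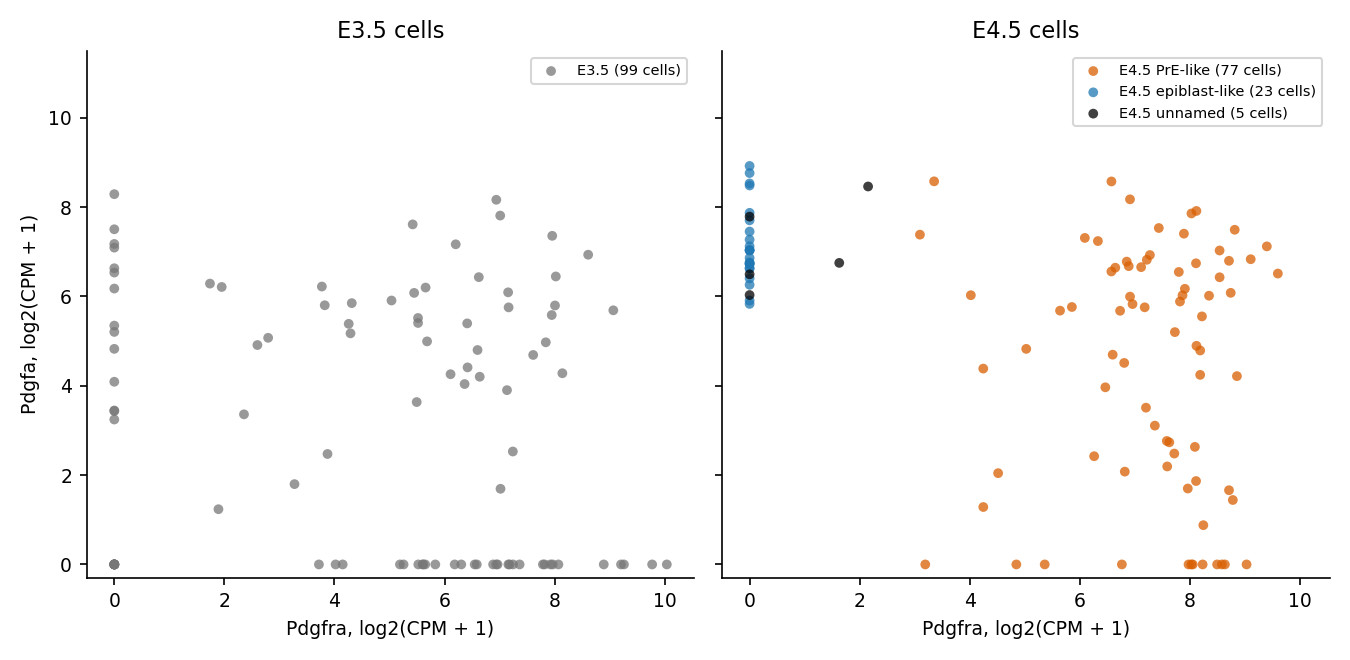
Pdgfra against Pdgfa CPM in single cells of E3.5 and E4.5 embryos, each axis log2(CPM + 1) and each point 1 cell. The 99 E3.5 cells fill the plane and both axes, the 77 PrE-like cells lie to the high-Pdgfra side, and the 23 epiblast-like cells lie on the axis of no Pdgfra, at 56.0 to 484 CPM of Pdgfa.

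To compare detection across depths, each cell was thinned to 150000 counts, which left out no cell of E3.5 or E4.5. At E3.5, 35 of 99 cells had reads of both genes, 35 of the receptor only, 18 of the ligand only and 11 of neither. Without thinning the numbers were 45, 31, 14 and 9. Most E3.5 cells thus carried at least 1 of the pair, and the combination of both was as frequent as the receptor alone in thinned cells. The study's authors had judged by eye whether a well held a single cell or a doublet. Of the 99 wells 9 are labelled double. In the 90 labelled single the thinned numbers were 30, 31, 18 and 11.

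By E4.5 the combinations had parted by class. Of 77 thinned PrE-like cells, 55 had both, 21 the receptor only, 0 the ligand only and 1 neither. Of these wells 30 are labelled double, and in the 47 labelled single, 34 had both and 13 the receptor only. All 23 epiblast-like cells had the ligand only, 16 of them in wells labelled single. At E5.5, 50 of 258 epiblast-like cells had the ligand only, 1 the receptor only and 207 neither, after thinning. Of the 8 endoderm-like cells of E5.5, 1 had both, 2 the receptor only, 1 the ligand only and 4 neither.

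At E6.5 both genes were read together mainly in streak-like cells. After thinning, 13 of 23 streak-like cells had both genes (56.5%, exact 95% interval 34.5 to 76.8%), 2 the receptor only and 8 the ligand only. In wells labelled single the first number was 13 of 22. Of 161 epiblast-like cells, 4 had both (2.48%, exact 95% interval 0.681 to 6.24%), 2 the receptor only, 48 the ligand only and 107 neither. Of 40 endoderm-like cells, 2 had both, 13 the receptor only, 3 the ligand only and 22 neither. Nearly all streak-like cells come from 1 embryo, so no test over embryos was made. The intervals treat cells as independent and hold no spread between embryos, so they do not compare the classes.

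**Figure D3:**
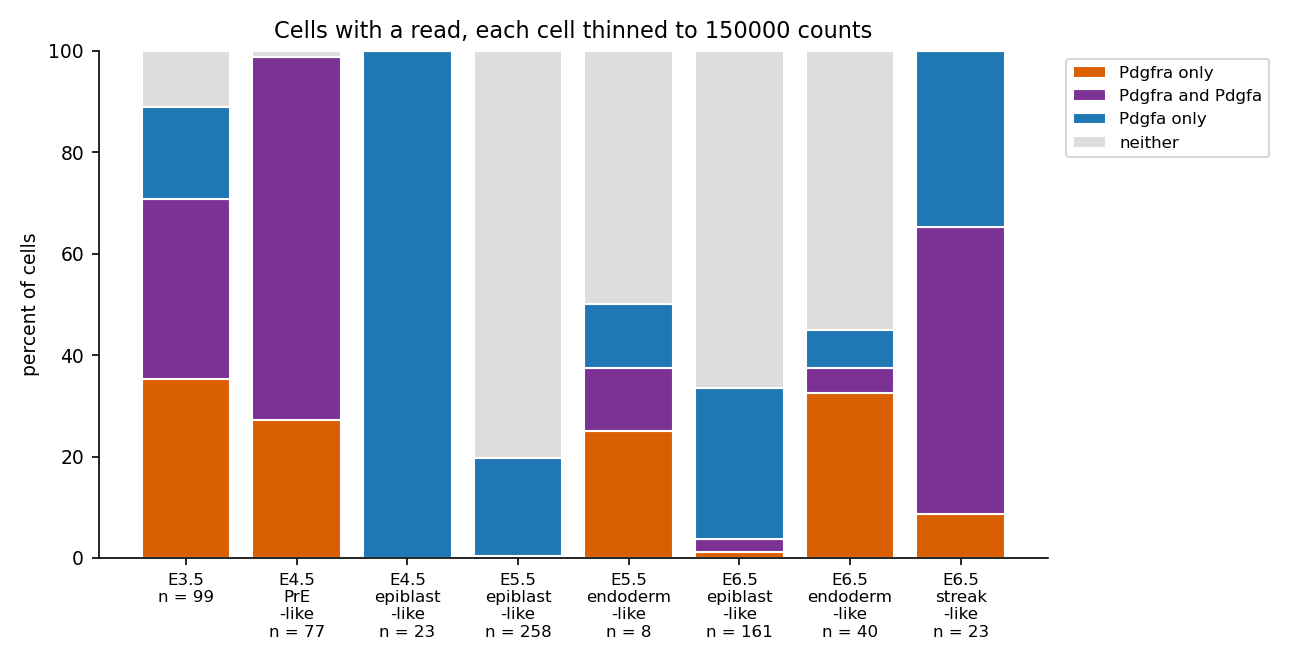
Share of thinned cells (percent, 150000 counts per cell) with reads of both genes, of Pdgfra only, of Pdgfa only and of neither, by class, in stacked bars with the number of cells under each. Ligand and receptor were read from the same well, some of them labelled double, in PrE-like (55 of 77), E3.5 (35 of 99) and streak-like cells (13 of 23), and in 0 of 23 epiblast-like cells of E4.5.

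The share of cells with a read was also compared between E3.5 and E4.5 over embryos, whatever the class. For Pdgfa it was 79.1 ± 6.24% at E4.5 (SD, n = 5) and 49.0 ± 24.7% at E3.5 (SD, n = 10), a difference of 30.1 percentage points (exact permutation test, two-sided, p = 0.0120, adjusted over 3 shares 0.0360). For Pdgfra the shares were 70.9 ± 6.52% and 64.4 ± 31.3%, and the difference of 6.51 points was within the spread (exact permutation, adjusted p = 0.709). For both genes together they were 50.6 ± 10.9% and 33.4 ± 26.2% (exact permutation, adjusted p = 0.275). On plates P8 and P9 of E3.5 the mean share of Pdgfa was 43.3% and 59.9%, and in the E3.5 cells without an embryo number, on plates P11.P6.P10, it was 33.3%. On plates P1 and P2 of E4.5 it was 82.6% and 76.7%. E3.5 and E4.5 embryos were on different plates, so plate and stage cannot be told apart. The Pdgfa call was lost without any 1 of E4.5 embryos 1 to 4, with adjusted p-values up to 0.102. It was also lost without the E3.5 cells that have no embryo number (exact permutation, adjusted p = 0.0539).

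The members were next set beside 12 lineage genes over single cells, as rank correlations given without a test, since cells of an embryo share their source and all genes of a cell share its depth. At E3.5 Pdgfra and Pdgfa were hardly related (rho = -0.13, 99 cells), and rho was below 0 in each of the 5 embryos with at least 8 cells. The receptor had a rho of 0.42, 0.45 and 0.49 with Gata6, Gata4 and Sox17, transcription factors of the primitive endoderm. Within embryos these were above 0 in 5, 5 and 4 of the 5. With Fgfr2, a receptor of the fibroblast growth factor (FGF) signal known to promote the PrE fate, rho was 0.36 and above 0 in 3 of 5 embryos, the lowest being -0.42. The other endoderm genes, Dab2 and Sox7, had -0.15 and -0.01. With Fgf4, the FGF ligand made by the epiblast, it was -0.54 and below 0 in all 5 embryos. For Nanog, the epiblast transcription factor, rho was -0.28 and above 0 in 1 of 5 embryos. Sox2 and Esrrb, also epiblast genes, had 0.09 and 0.07.

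Detection was counted in the same cells. All 25 E3.5 cells with Gata4 had Pdgfra, as did 29 of 32 with Sox17, 72 of 90 with Gata6, 46 of 55 with Fgfr2, 14 of 22 with Dab2 and 38 of 55 with Fgf4, against 76 of all 99 cells. The ligand was found in 11 of the 25 cells with Gata4 and in 35 of 55 with Fgf4, against 59 of 99. For Pdgfa at E3.5 no rho with a lineage gene went beyond 0.17, the value for Sox2. Depth itself had a rho of -0.28 with Pdgfra and -0.12 with Pdgfa.

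At E4.5 the 105 cells separated on these genes. Pdgfra had a rho of 0.65 with Gata6, 0.62 with Gata4 and 0.60 with Dab2, an endocytic adaptor of the endoderm. With Nanog it was -0.60 and with Fgf4 -0.64. Pdgfa took the other side, with a rho of 0.47 with Nanog, 0.47 with Fgfr1 and -0.51 with Dab2. The ligand and the receptor had a rho of -0.39, below 0 in all 5 embryos. Over the 77 PrE-like cells rho was 0.01 to 0.20 for Pdgfra and the 12 genes. All of the 12 except Fgfr1 and Fgfr2 are also markers that named the classes, so these values are not independent of how the class was drawn. Between ligand and receptor rho was -0.06 over the 77 cells, but -0.51 to 0.47 within embryos, with a median of -0.43 and values below 0 in 4 of 5.

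**Figure D4:**
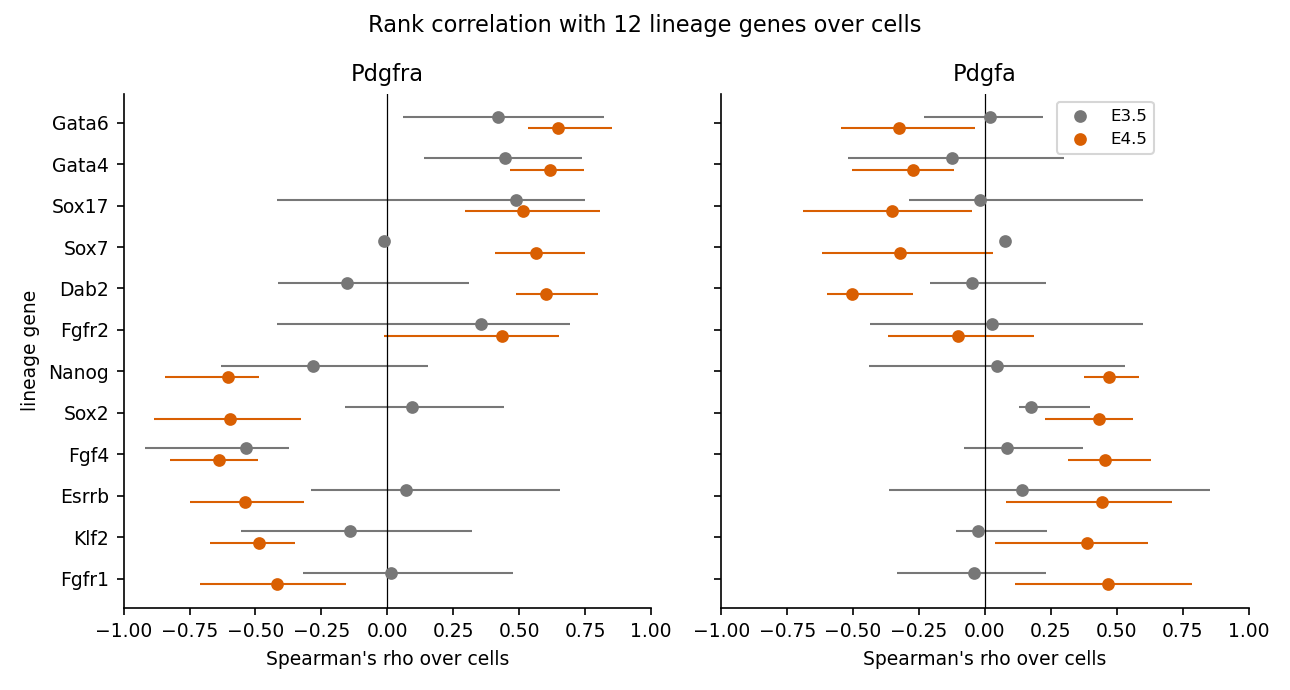
Spearman's rho of Pdgfra and of Pdgfa with 12 lineage genes over single cells of E3.5 (99 cells) and E4.5 (105 cells), with points for all cells of the stage and lines for the lowest to highest rho within embryos of at least 8 cells. Over all cells, Pdgfra has positive values with Gata6, Gata4 and Sox17 and negative values with Nanog and Fgf4 at both stages. At E3.5 Dab2 and Sox7 (-0.15 and -0.01) and Sox2 and Esrrb (0.09 and 0.07) do not take the sides of their lineage. Within embryos of E3.5 Sox17 goes down to -0.42 and Nanog up to 0.15. Pdgfa stays near 0 at E3.5 and takes the opposite sides at E4.5 for the genes first named.

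At E3.5 and in PrE-like cells, Pdgfa and Pdgfra were read in more cells than any other ligand or receptor gene of the family. Of the other ligands, Pdgfc was read in 6 of 23 epiblast-like cells of E4.5 and in 0 of 77 PrE-like and 0 of 99 E3.5 cells, which by the floor of 3 counts allow shares of cells with a read of up to 3.9% and 3.03%. Pdgfd was read in 18 of 259 E5.5 and 23 of 166 E6.5 epiblast-like cells. Pdgfb, the ligand of both receptor types, was read in 6 of 99 E3.5 cells and in at most 12.5% of the cells of any class. The receptor Pdgfrb was read in at most 4% of the cells of any class, and Pdgfrl, which encodes a receptor-like protein without a kinase, in 34 of 166 epiblast-like and 7 of 25 streak-like cells at E6.5.

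**Figure D5:**
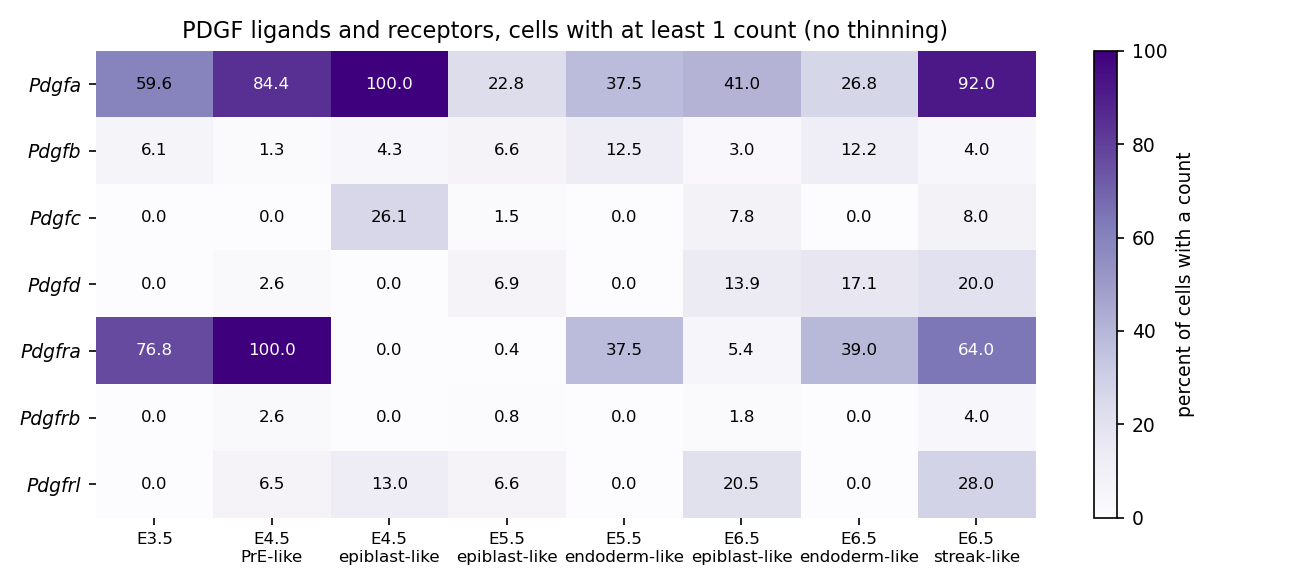
Percent of cells with at least 1 read of each PDGF ligand and receptor gene, by class and without thinning; the shade and the printed value give the percent. At E4.5 Pdgfra reaches 100% in the PrE-like class and Pdgfa 100% in the epiblast-like class, whereas Pdgfrb stays at or under 4%.

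A list of 60 other genes of the pathway, from ligand processing to negative regulators, was followed in the same fit, and 59 of them could be tested. In the E4.5 comparison of PrE-like with epiblast-like cells, 2 of 59 were called (3.39%, against 5.56% of all genes), 1 in each direction. Pdgfc was at 0 in PrE-like cells and 11.7 ± 17.2 CPM in epiblast-like cells (SD, n = 5; edgeR, adjusted p = 0.0191). Its median there was 5.81 CPM, and embryo 5 had 42.0 CPM, without which the mean was 4.15 CPM. Sos2, which activates Ras at the receptor, was higher in PrE-like cells, at 8.61 ± 7.90 against 0.342 ± 0.765 CPM (SD, n = 5; edgeR, adjusted p = 0.0479). Without embryo 5 the PrE-like mean was 5.54 CPM, and the epiblast-like reads came from embryo 3 alone. Leaving out embryo 4 or 5 left 0 genes of the list called, and leaving out embryo 1 or 3 left 1. The median log2 difference was 0.04 over the list and 0.02 over all genes.

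In the other comparisons the pathway also moved at about the share of all genes. From E3.5 to the E4.5 epiblast 13 of 59 were called (6 higher, 7 lower, 22.03% against 19.2%). Stat5b, a signal-activated transcription factor, went from 8.602 ± 16.7 CPM (SD, n = 10), or 3.42 CPM without embryo 1 of plate P8, to 0. The kinase gene Fyn was at 0 in all E3.5 embryos and at 3.59 ± 4.83 CPM in the E4.5 epiblast (SD, n = 5; edgeR, adjusted p = 2.5e-05), or 1.55 CPM without embryo 5. From E3.5 to the PrE 9 were called (15.3% against 18.3%), among them Plat, the protease that activates PDGF-CC, at 0 in all E3.5 embryos and 16.4 ± 12.4 CPM in PrE-like cells (SD, n = 5; edgeR, adjusted p = 0.00137). Pdgfrl was called higher in both E4.5 classes than at E3.5, at means of 0.859 and 1.31 CPM against 0, and Pdgfd in the PrE, at 0.221 CPM. Without its highest embryo each of these means fell, to 0.530, 0.863 and 0.0425 CPM.

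From the E4.5 to the E5.5 epiblast 4 of 59 were called (6.78% against 5.37%). Spry2, a feedback inhibitor of receptor tyrosine kinase signalling, fell from 158 ± 79.4 CPM (SD, n = 5) to 32.8 ± 20.5 CPM (SD, n = 8). The adaptor gene Grb10 rose from 6.41 CPM (1.28 CPM without embryo 5) to 44.4 CPM, Pdgfd rose from 0 to 2.59 CPM and Pdgfc fell from 11.7 to 0.0605 CPM. From E5.5 to E6.5 8 were called (6 higher, 2 lower, 13.6% against 11.6%). Spry2 rose again, to 314 ± 190 CPM (SD, n = 12; edgeR, adjusted p = 1.6e-05), Nras rose from 192 to 729 CPM and Grb10 from 44.4 to 161 CPM. Socs3, an inhibitor of cytokine signalling, fell from 4.54 to 0.282 CPM. The median log2 change was 0.55 over the list and 0 over all genes.

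In the endoderm 8 of 59 were called between the PrE and E6.5 (3 higher, 5 lower, 13.6% against 11.6%). Grb10 rose from 2.68 ± 2.91 CPM (SD, n = 5) to 381 ± 197 CPM (SD, n = 7; edgeR, adjusted p = 5.8e-06). Socs1 went from 34.7 ± 19.4 CPM to 0, Socs3 from 29.6 ± 62.9 CPM (1.51 CPM without embryo 3) to 0 and Pdgfrl from 1.31 to 0. Between E6.5 endoderm-like and epiblast-like cells 6 were called (10.2% against 15.3%), with Pdgfrl, Socs1, Pdgfc and Lrig1 all lower in the endoderm. In the epiblast Socs1 was at 1.89 CPM and Pdgfc at 1.008 CPM, or 0.678 and 0.457 CPM without the highest embryo of each. The interaction was called for Socs1 and Pdgfrl (3.39% against 3.66%). In the streak-like comparison edgeR called 0 of 59, with 2 at an unadjusted p of at most 0.05, and DESeq2 called 0.

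Among all 16928 genes, Gata6 had the pattern most like that of Pdgfra over the 48 sums of 7 classes, with a Pearson r of 0.87 on log2(CPM + 1). Hesx1, Cpeb2, Fam176a and 2200002D01Rik followed at 0.81. Gata6 had medians of 236 CPM at E3.5, 195 CPM in PrE-like cells and 0 in the E4.5 epiblast, where Pdgfra had medians of 85.3, 205 and 0 CPM. Hesx1, a homeobox gene, had medians of 24.2, 139 and 0 CPM in these classes and 77.2 CPM in E6.5 endoderm. The genes most like Pdgfa were Hemt1 (r = 0.72), Pglyrp1 (0.71), Gm949 (0.70), Tns3 (0.70) and Lnpep (0.70). Ligand and receptor had an r of 0.28 with each other. Sums of a class share stage and processing, so these values are descriptions.

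The nearest protein-coding genes with a row were compared at E4.5. Gsx2, 74.4 kb below Pdgfra, had a median of 0 in every class. Chic2 lies 108 kb below and had medians of 49.5 CPM in PrE-like and 17.8 CPM in epiblast-like cells of E4.5 (log2 0.79, edgeR, adjusted p = 0.508). Above it lie Kit and Kdr, the genes of related receptor kinases, 377 kb and 735 kb away. Kdr had a median of 9.79 CPM in the E4.5 epiblast and 0 in PrE-like cells, the opposite side from Pdgfra, which was not called (log2 -4.63, edgeR, adjusted p = 0.202). Near Pdgfa, Prkar1b at 19.9 kb above, and Fam20c at 166 kb and A430033K04Rik at 324 kb below, had medians of at most 5.30 CPM in any class. Sun1, 203 kb above, had medians of 63.1 and 78.2 CPM in the E4.5 classes (log2 -0.16).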

How the data were processed

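Single cells had been picked into wells and their polyadenylated RNA amplified by Smart-seq2, as part of a protocol that separates RNA and DNA of a cell. Per the labels, reads were trimmed with Trim Galore 0.4.3 and aligned with HISAT2 2.0.5 to GRCm38. The authors counted reads on genes, and the deposited counts are raw, 1 value for each gene in each cell. The authors had left out cells of low quality, trophoblast and multiples. Counting reads on genes without strand joins overlapping genes, and shallow cells miss low genes.

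From these counts, cells were clustered and clusters named from fixed marker lists. Single cells on the wrong side of the midpoint between classes were left unnamed, a check added after the data were seen. Counts were summed per embryo and class (at least 3 cells) and all 48 sums entered 1 fit in edgeR 4.0.16 in R 4.3.3, with TMM scaling, filterByExpr, the quasi-likelihood test and p-values adjusted by Benjamini and Hochberg. Each comparison was made from that fit, and DESeq2 1.42.0 was an alternative. The labels number the embryos and not their litters, so p-values measure the spread between embryos. Classes of one stage come from the same embryos, so an embryo block was fitted as an alternative. Deviations of the 2 classes of an embryo correlated at 0.0440 to 0.167 at E4.5 (5 pairs) and at 0.0420 to 0.338 at E6.5 (7 pairs). On simulated data with 200 genes changed 8-fold, 100 were recovered in the E4.5 lineage comparison and 33 in the streak-like one.

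Named are the members, the other PDGF ligands and receptors, the 4 called genes of the PDGF lists with the largest change per comparison, the 5 genes most like each member, the 12 lineage genes, and the nearest 2 protein-coding genes on each side. The members and lists were chosen with earlier results of these data known. The other settings tried were other normalization, no filter, fits of single comparisons, other clusterings, wells labelled single, at least 5 cells per sum, cells titled E6.75 left out, other depths of thinning, and each E4.5 embryo left out.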

Additional observations from a re-analysis of the deposited data

Results flagged for a closer look

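In 15 groups of 4 to 10 embryos, 4 had an embryo far from the others by Dixon's criterion. For normally distributed values chance alone meets it in about 1 of 20 groups. CPM values cannot fall below 0 and all 4 were the highest of their group, so that rate need not hold here. In epiblast-like cells of E5.5, embryo 3 of plates P7.P4.P5 had 0.0794 CPM of Pdgfra, which is 1 count, and the other 7 had 0. The same embryo had the highest Pdgfa, at 27.7 CPM, where the next embryo had 13.0 CPM, and without it the mean of the class is 6.503 CPM. In endoderm-like cells of E6.5, embryo 7 of plate P3 had 90.4 CPM of Pdgfra from 3 cells. The next had 36.0 CPM, and the mean without it is 16.8 CPM. For Pdgfa in the same class embryo 2 of plate P1 had 7.02 CPM, also from 3 cells, against 2.31 CPM in the next, and the mean without it is 0.981 CPM. The Pdgfra difference between endoderm and epiblast differed between E6.5 and E4.5, at an interaction of -8.73 on the log2 scale (edgeR, adjusted p = 0.0339). Its size depends on the fit's prior count, as the E4.5 epiblast sums are all at 0. The call was lost when any E4.5 embryo was left out.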

How the results depend on the processing

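Of 298 values of the members or shares under other settings, 269 kept their direction and side of the threshold, 26 fell short of it and 3 passed it, and none turned direction. Pdgfa in the E4.5 epiblast against E3.5 passed in DESeq2 (log2 1.95) and in the permutation test (2.77), as did Pdgfra in the PrE against E3.5 (2.01). The permutation test lost Pdgfra in the E6.5 against the E5.5 epiblast (0.49). For Pdgfra between E6.5 endoderm and the PrE, the call was lost in a fit of these classes only (-2.99), in DESeq2 (-2.95), with wells labelled single (-2.99), with Ward clusters (-3.00), without cells titled E6.75 (-2.68), and without 4 of the 5 embryos (-3.07 to -2.84). For Pdgfa between E6.5 endoderm and epiblast it was lost in a fit of these classes only (-2.46), with Ward clusters (-1.98), without E6.75 (-2.18) and with the replicate block (-2.13). The block changed no other call of a member that it could test. The Pdgfra interaction was lost with wells labelled single (-8.55) and without any E4.5 embryo (-8.79 to -8.61). The Pdgfa share difference was lost at 10 CPM or more (30.6 points), without the E3.5 cells that have no number (28.4) and without 4 of the 5 E4.5 embryos (28.01 to 32.2). The causes were not tested.

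Counts of called genes moved by over 1.5 times in these cases. For PrE-like against epiblast-like cells 942 became 497 without the check of single cells and 499 to 546 without 1 embryo. Fits of only the classes compared gave 1387 for 3248 (E4.5 epiblast against E3.5), 1606 for 3097 (PrE against E3.5), 2052 for 909 (E5.5 against E4.5 epiblast), 872 for 1957 (E6.5 endoderm against PrE) and 986 for 2594 (E6.5 endoderm against epiblast). The last was 1649 without E6.75 and 568 with the block. At least 5 cells per sum gave 1724 for 3248. The streak-like comparison had 23 in DESeq2, 12 with Ward clusters and 8 at 5 cells, for 3. The interaction had 952 in DESeq2, 355 with wells labelled single and 262 to 311 without 1 embryo, for 620. Calls of the 59 pathway genes ran from 0 to 5 (2 as reported) at E4.5, 6 to 17 (13) in the E4.5 epiblast against E3.5, 2 to 8 (4) from the E4.5 to the E5.5 epiblast, 6 to 13 (8) on to E6.5, 5 to 11 (8) from the PrE to E6.5 endoderm, 3 to 9 (6) in E6.5 endoderm against epiblast and 1 to 4 (2) for the interaction. The share of higher calls went from 65.5 to 53.5%, 70.5 to 59.4%, 44.6 to 60.4% and 38.0 to 48.2% in DESeq2 for the first 4 of the comparisons with fits of 2 classes named here, and from 100 to 4.35% for the streak-like one. Relative log expression scaling moved the median of all genes from -0.24 to -0.14 for E6.5 endoderm against epiblast. Depth limits the absence of Pdgfra in the 23 epiblast-like cells of E4.5 to under 0.193 CPM, and Ward clusters would draw that class at 27 cells.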
